A study of Mus musculus with 2 samples.

Results

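Of the 37273 genes annotated on mm9 by GENCODE M1, 10 genes for receptors and ligands of axon guidance were chosen by symbol: Dcc, Unc5b, Unc5c, Unc5d, Robo1, Robo2, Slit1, Slit2, Slit3 and Ntn1. R-loops had been mapped in neural stem and progenitor cells (NSPCs) that were cultured from the frontal brain of C57BL/6 mice at postnatal day 7. The cells were exposed for 48 h to 0.5 μM aphidicolin, an inhibitor of replicative DNA polymerases that the sample labels do not name. In DRIP-seq, genomic DNA is cut with restriction enzymes, the S9.6 antibody pulls down fragments with RNA:DNA hybrids, and their DNA is read by sequencing. The result is 1 list of 22132 R-loop peaks with their positions and no height, so the depth is unknown, all values below are descriptions without a replicate error, and no untreated cells were compared. Of these peaks, 18 overlapped the 10 genes by at least 1 bp.

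An R-loop forms where an RNA stays paired with the DNA strand it was copied from and leaves the other strand single. Such structures are favoured where the displaced strand, which has the sequence of the RNA, is rich in guanine, and they are known for their place at active promoters and gene ends. In the developing brain, netrin secreted along the path of a growing axon attracts it through DCC and repels it when UNC5 receptors take part, while SLIT proteins repel axons that carry ROBO receptors. Many of these genes are very long, and most of their length is intron.

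The genes differed widely in their R-loop peaks. Ntn1, which encodes netrin-1, held 8 peaks and Unc5b held 4, so that 66.7% of the 18 peaks lay in 6.13% of the 4251 kb that the 10 genes span. Unc5d held 2 peaks, and Dcc, Robo2, Slit1 and Slit3 held 1 each. No peak overlapped Unc5c, Robo1 or Slit2. A peak was thus present in 7 of 10 genes, beside 39.6% of all protein-coding genes, most of which are far shorter.

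The peaks also differed in sequence, and 1 stretch of 30 bases is shown for 7 of them to let the reader see the kinds of bases they hold. Each is the window in which G outnumbers C the most, or C outnumbers G for Robo2, read 5′ to 3′ on the coding strand of mm9, with the base in excess in capitals. The windows of the first Unc5d peak, Robo2 and Slit1 hold simple repeats, and the others are mixed. A window does not stand for a whole peak, since the Ntn1 and Unc5b peaks hold repeats elsewhere. As each window was chosen for its excess, it does not show the balance of G and C in its peak. The Ntn1 peak shown has 1083 G and 1046 C in all, and another window of it holds 22 C and 4 G. No sequence of Dcc is printed.
Unc5b, the more distal peak of intron 1, chr10:60258510-60258539, minus strand: GGGctGGGaGaGGaGGaGaGGGGcatGGGG
Unc5d, first peak, chr8:30254848-30254877, minus strand: aGaGaGaGaGaGaGaGaGaGaGaGaGaGaG
Unc5d, second peak, chr8:30144836-30144865, minus strand: aGaaGGGatGGGaGGaGaGGGGGaGaGatG
Robo2, its peak, chr16:74075839-74075868, minus strand: aCCCCttaCaCCaCaCaCaCaCaCaCaCaC
Slit1, its peak, chr19:41707904-41707933, minus strand: GGatGGatGGatGGaaGGaaGGaaGGGtGG
Slit3, its peak, chr11:35469816-35469845, plus strand: GGctGGGGccaGtGtGaaGcaGGGaGaGtG
Ntn1, the peak nearest its start, chr11:68199872-68199901, minus strand: cGGGaGGctGGGGaaGccGGGaGGaaGGGG

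Among the netrin receptors, Unc5b stood apart by the number of its peaks and by their place. Unc5b encodes a repulsive netrin receptor that is also known in blood vessels. The gene (ENSMUSG00000020099, chr10:60225358-60294329, minus strand) is 69.0 kb long with 17 exons, and its 4 peaks covered 10.5% of it. The first, of 0.977 kb at chr10:60293380-60294356, lay over the TSS and exon 1. The second and the third, of 1.54 and 1.84 kb, lay in intron 1 with midpoints 25.3 and 35.9 kb from the TSS. The fourth, of 3.64 kb, was the widest of the 18 and covered the transcription end site (TES) together with part of exon 17. Unc5b was the only one of the 10 genes with a peak over its TSS, which 14.9% of all protein-coding genes and 16.2% of those of at least 50 kb had. It was also the only one with a peak over its TES, beside 10.9% of all protein-coding genes and 7.19% of those of at least 50 kb.

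Dcc, the receptor through which netrin-1 attracts axons, was the longest of the genes and nearly bare. It spans 1092 kb (ENSMUSG00000060534, chr18:71418392-72510723, minus strand) and held a single peak of 0.8 kb in intron 27, whose midpoint lay at 97.0% of the gene, 1059 kb from the TSS. The nearest peak to the TSS lay 45803 bp upstream, outside the gene. Between that upstream peak and the one in intron 27, 1105 kb were free of peaks.

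Unc5d and Unc5c, both repulsive netrin receptors, differed from Unc5b and from each other. Unc5d (ENSMUSG00000063626, chr8:29757189-30329810, minus strand, 573 kb) had 2 peaks, both in intron 1. They were 1.71 and 0.529 kb wide with midpoints 75.1 and 185 kb from the TSS. An internal start, 328 kb from the TSS, gives rise to 2 shorter transcripts, and both peaks lay upstream of it, so these transcripts held 0 peaks. Unc5c (ENSMUSG00000059921, chr3:141128528-141497888, plus strand, 369 kb) had 0 peaks, and the nearest peak lay 177181 bp from its limits.

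The Robo genes, which encode receptors for SLIT proteins and lie near each other on chromosome 16, shared an interval with few peaks. Robo1 (ENSMUSG00000022883, chr16:72663394-73046340, plus strand, 383 kb) had 0 peaks, and the nearest lay 159730 bp upstream of its limits. GENCODE M1 may lack longer transcripts of Robo1, so the 0 holds for the annotated span alone. Robo2 (ENSMUSG00000052516, chr16:73892551-74412070, minus strand, 520 kb) had 1 peak of 0.467 kb in intron 2, with its midpoint 336 kb from the TSS. From the start of Robo1 to the start of Robo2, including the 846 kb between the genes, 1749 kb held this 1 peak alone.

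Among the Slit genes, which encode the secreted ligands of ROBO receptors, no TSS or TES was covered. Slit1 (ENSMUSG00000025020, chr19:41674747-41818155, minus strand, 143 kb) had 1 peak of 1.10 kb over exon 20 and part of intron 20, 110 kb from the TSS. Slit2 (ENSMUSG00000031558, chr5:48374394-48697521, plus strand, 323 kb), which hosts the microRNA gene Mir218-1, had 0 peaks, and the nearest lay 95569 bp from its limits. Slit3 (ENSMUSG00000056427, chr11:34934726-35522009, plus strand, 587 kb), which hosts Mir218-2, had 1 peak of 0.164 kb in intron 23, at 91.1% of the gene. This was the narrowest of the 18 peaks.

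Ntn1 (ENSMUSG00000020902, chr11:68022866-68214325, minus strand, 191 kb) held the most peaks. They covered 7.39% of the gene and lay from 7.13% to 93.9% of its length. The one nearest the TSS, which was also the widest at 3.54 kb (chr11:68198910-68202446), had its midpoint 13.6 kb downstream of the TSS. It covered exon 3, the annotated starts of 2 other transcripts, the nearer of them 13.8 kb from the TSS of the gene, and the whole of a short transcript of 1.37 kb. The TSS of the gene itself was not in a peak, the nearest being a peak of 0.311 kb that began 2551 bp upstream. The narrowest peak, of 0.769 kb, lay in intron 3, and so did 2 others, while the remaining 4 lay further downstream, with widths of 0.813 to 2.46 kb. Of these 4, 1 covered exon 5 and 1 also overlapped Gm12305, a transcript annotated on the same strand inside Ntn1.

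**Figure D1:**
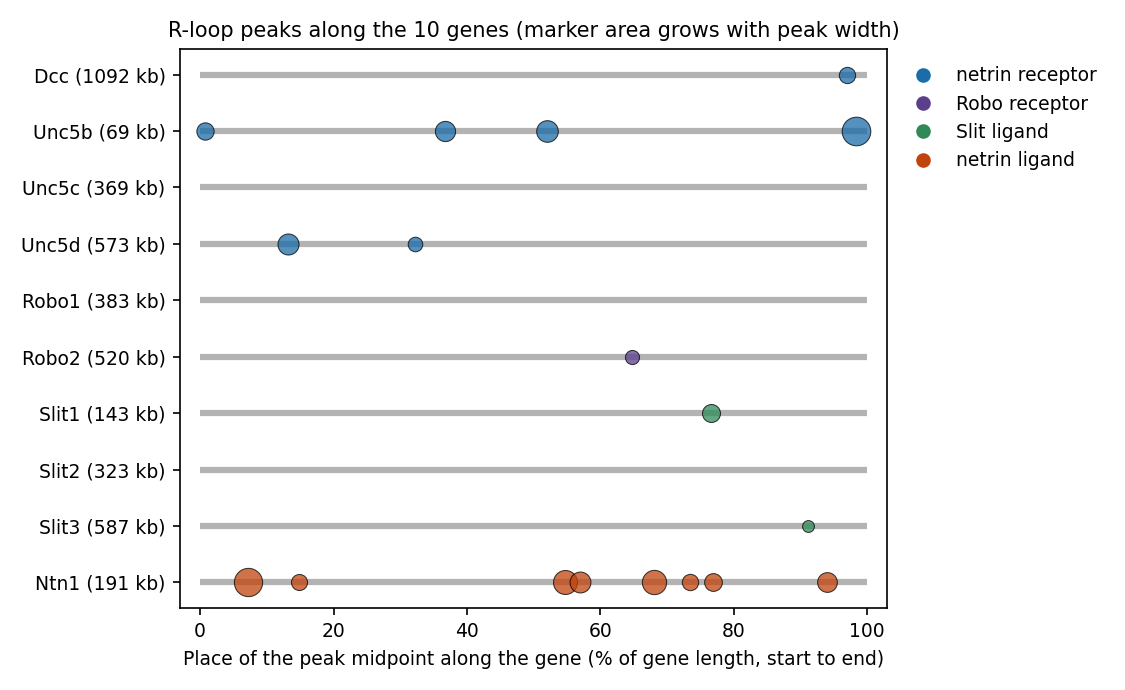
Place of each R-loop peak along the 10 genes, from the start (0%) to the end (100%) of each gene in the direction of transcription. Each point is the midpoint of a peak, its area grows with peak width, colours give the role of the gene, and gene lengths in kb stand beside the names; peaks of Unc5b and Ntn1 were spread along the gene, while those of Dcc and Slit3 lay beyond 90% of it and Unc5c, Robo1 and Slit2 have no point.

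By role, the 6 receptor genes held 8 peaks, or 0.266 per 100 kb, and the 4 ligand genes held 10, or 0.803 per 100 kb. This order rested on Ntn1, since the 3 Slit genes had 0.190 peaks per 100 kb. The 2 Robo genes had 0.111 and the 4 netrin receptors 0.333 per 100 kb. All 10 genes together had 0.423 peaks per 100 kb. Without Ntn1 and Unc5b, the other 8 genes had 0.15 peaks per 100 kb and 0.120% of their bases in peaks. Those 2 genes were left out because they held the most peaks, so the fall follows from the choice. All protein-coding genes of at least 50 kb, with none left out and not matched for length, had 1.13 peaks per 100 kb.

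As a long gene is a larger target for a peak, each gene was set beside the protein-coding genes of its own length class. At 50 to 100 kb, 55.6% of genes had a peak, and so did Unc5b, with 5.80 peaks per 100 kb where the median was 1.20. In that class, 90% of the 2440 genes had a lower density. At 100 to 200 kb, 61.6% of genes had a peak, and the median was 0.773 per 100 kb. Ntn1, at 4.18, exceeded 90.5% of the 1447 genes of this class, whereas Slit1, at 0.697, lay just under the median. At 200 to 400 kb, 64.6% of genes had a peak, but none of Unc5c, Robo1 and Slit2 did. At 400 kb and above, 72.0% of genes had a peak, and so did Dcc, Unc5d, Robo2 and Slit3. In this class, the median was 0.220 per 100 kb, and Unc5d, at 0.349, lay above it. Robo2 (0.192), Slit3 (0.170) and Dcc (0.0915) lay below it, Dcc with 68.0% of the 322 genes denser. In all, 3 of the 10 genes were denser than the median of their class.

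**Figure D2:**
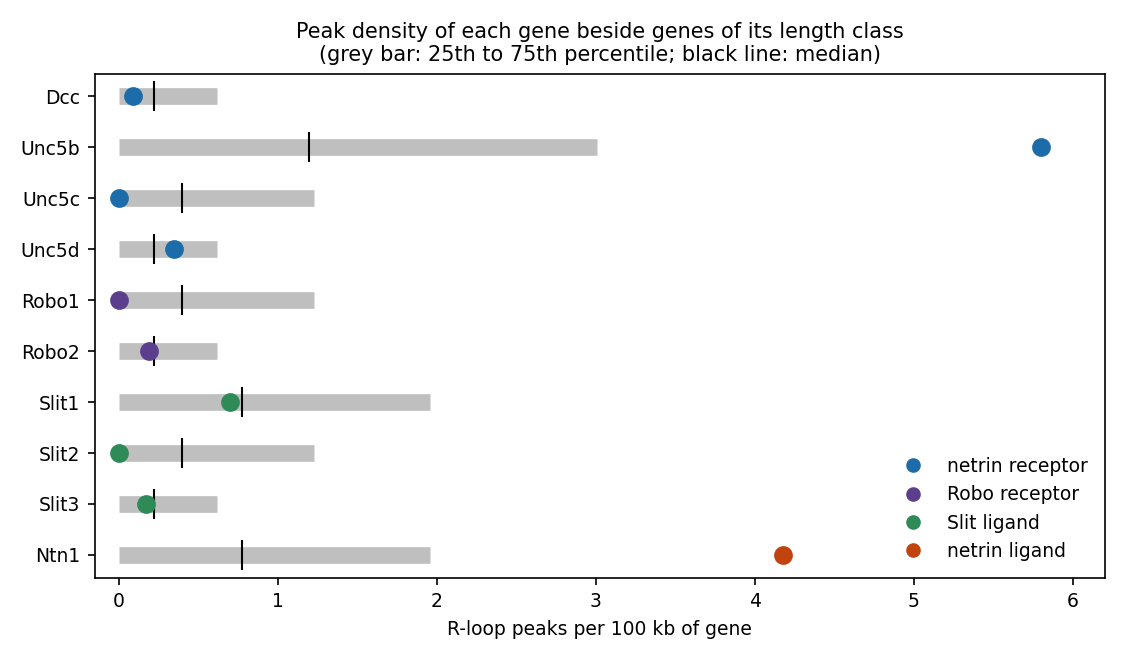
R-loop peaks per 100 kb in each of the 10 genes (coloured points, by role) beside protein-coding genes of the same length class, with the 25th to 75th percentile as a grey bar and the median as a black line. Unc5b (5.80) and Ntn1 (4.18) lie beyond the grey bars, and the other 8 genes lie within them, 3 of them at 0.

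The surroundings of the genes were not equally rich in peaks. Within 500 kb on each side, Unc5b had 8 peaks per Mb, against 58 per Mb inside the gene. For Ntn1 the flanks had 10 and the gene 41.8 per Mb. Slit1 showed the opposite order, since its flanks had 24 peaks per Mb, 18 of them on the upstream side, and the gene 6.97. Slit3 likewise had 1.70 peaks per Mb inside and 10 in its flanks. Around Unc5d, Robo1, Robo2 and Slit2 the flanks held 1 peak each, so those regions were poor in peaks beyond the gene itself. Unc5c (0 inside, 4 in the flanks) and Dcc (0.915 and 3) had somewhat more peaks per Mb outside. Denser inside than outside were Unc5b, Unc5d, Robo2 and Ntn1, of which Unc5d and Robo2 rest on 2 and 1 peaks.

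**Figure D3:**
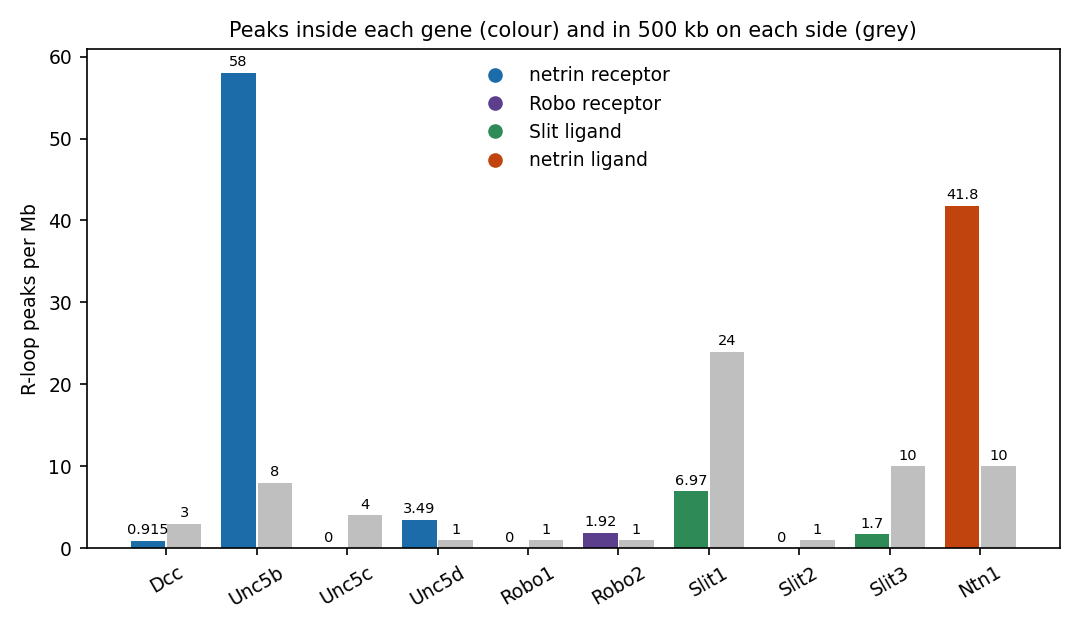
R-loop peaks per Mb inside each of the 10 genes (coloured bars, by role) and in the 500 kb on each side of it (grey bars); numbers above the bars give the values. Unc5b and Ntn1 were denser than their flanks, Slit1 and Slit3 were sparser, and the flanks of Unc5d, Robo1, Robo2 and Slit2 held 1 peak each.

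The longest interval without a peak that touched each gene was also measured. The 21819 intervals between neighbouring peaks on the autosomes had a median of 23.3 kb. A long gene with few peaks must touch a long interval. The ranks below therefore restate gene length and peak count, and were not set beside those of genes of similar length. At Unc5b the longest such interval was 29.2 kb, with 54.6% of all intervals shorter. Those at Slit1 (195 kb) and Ntn1 (239 kb) exceeded 87.0% and 89.3% of intervals. The interval between the first Unc5d peak and the next peak upstream, which takes in the TSS, measured 1901 kb, and 99.5% of intervals were shorter. Robo1, as annotated by GENCODE M1, lay whole within an interval of 1572 kb that reached into Robo2 and was exceeded by 157 others. Slit2 lay in one of 1021 kb and Unc5c in one of 737 kb, while the longest at Slit3 was 626 kb. None of these intervals held unsequenced bases of the assembly, but whether their reads could be placed uniquely was not tested.

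Genes richer in GC tended to hold more peaks per 100 kb. Unc5b (54.0% GC), Slit1 (50.3%), Ntn1 (48.8%) and Slit3 (46.5%) lay above the median of 42.6% for protein-coding genes of at least 50 kb. The other 6 genes had 36.6% (Robo2) to 40.1% (Unc5d). Across the 10 genes, Spearman's rank correlation between gene GC content and peaks per 100 kb was 0.69, and across the 4841 protein-coding genes of at least 50 kb it was 0.34. All points come from the same peak list, and peaks per 100 kb fell with gene length too, with a rank correlation of -0.45 across the 10 genes and -0.12 across the long genes. Of protein-coding genes of at least 200 kb, 47.2% had a peak where GC content was under 40%, and 77.2% where it was 40% or more. In the same order, a peak was present in 2 of 5 (Dcc and Robo2, but not Unc5c, Robo1 and Slit2) and in 2 of 2 (Unc5d and Slit3) of the genes described here. The limit of 40% was chosen after seeing the data, and it falls between Robo1 (39.7%) and Unc5d (40.1%). These counts are therefore no test of a relation to GC content. The part of GC content in recovery or alignment of the DNA was not tested.

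The peaks themselves were richer in GC than the genes around them except for the first Unc5d peak (38.3%, against 40.1% for the gene) and the fourth Unc5b peak (53.5%, against 54.0%). Over the 18 peaks, GC content was 52.2% ± 7.48 (SD over peaks), beside a mean of 49.0% for peaks of protein-coding genes of at least 50 kb. The peak over the Unc5b TSS was highest at 69.5%, followed by the Ntn1 peak over the internal starts at 60.2%. The 12 peaks of Ntn1 and Unc5b averaged 55.4% and the 6 of the other genes 45.8%, which is below the mean of long genes.

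GC skew is (G - C)/(G + C) along the coding strand, and a positive value means that the strand displaced by a nascent RNA holds more G than C. It was positive in 14 of the 18 peaks (77.8%), beside 63.5% of peaks in protein-coding genes of at least 50 kb. Its size differed between the genes more than its sign. The 12 peaks of Ntn1 and Unc5b had small values of -0.12 to 0.14. Outside these genes, the Dcc peak reached 0.66, with 280 G and 57 C on the coding strand, and the second Unc5d peak 0.48. The Robo2 peak was skewed the other way, at -0.68, with 30 G and 157 C. In all, 3 of the 18 peaks (16.7%) had a skew beyond 0.4 in either direction, as did 12.3% of peaks in long genes. All 3 lay in introns alone, where they made up 23.1% of 13 peaks, beside 19.0% of such peaks in long genes.

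Perfect tandem repeats were present in several of the peaks, as in the sequences shown above. The first Unc5d peak held 50 bp of an AG repeat, the Robo2 peak 38 bp of an AC repeat, the Slit1 peak 39 bp of GGAA, and the Dcc peak 43 bp of a repeat with a unit of 2 bp. Some peaks of Ntn1 and Unc5b held repeats too, 45 bp of AC in the Ntn1 peak over the internal starts and 26 bp of CA in the second Unc5b peak. The longest repeat of a peak had a median of 14.5 bp over the 12 peaks of Ntn1 and Unc5b. Over the other 6 peaks it was 38.5 bp. In the second Unc5d peak, 69.4% of bases on the coding strand were purines, though its longest perfect repeat was only 12 bp. The longest repeat of the 18 peaks, 52 bp of TG, lay in the fourth Unc5b peak. The longest repeat of a peak had a median of 17.5 bp over the 18 peaks and 20 bp over peaks of long genes. Whether such repeats affect the antibody or the alignment was not tested.

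**Figure D4:**
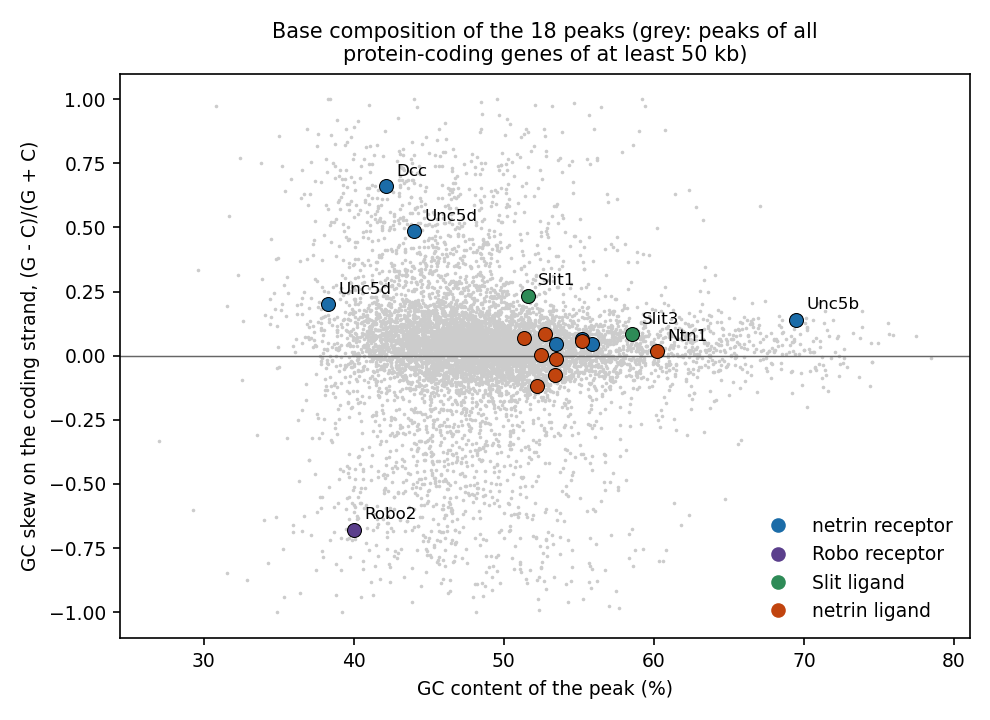
GC content (%) against GC skew on the coding strand for the 18 peaks (coloured points, by role of the gene), with all 8709 overlaps of a peak with a protein-coding gene of at least 50 kb in grey. The peaks of Ntn1 and Unc5b cluster near a skew of 0 at 51.4% GC or more, while those of Dcc and Robo2 lie near 0.66 and -0.68 at lower GC content.

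Most of the 18 peaks lay away from both ends of the genes. By class, 2 covered an annotated start, 1 an end, 2 an internal exon and 13 (72.2%) introns alone, beside 62.6% in introns alone for protein-coding genes of at least 50 kb. The first 10% of the gene held the midpoints of 2 peaks (11.1%), in Unc5b and Ntn1, beside 19.2% of peaks in long genes. The last 10% held 4 (22.2%), in Dcc, Unc5b, Slit3 and Ntn1, beside 16.9%. Widths ran from 0.164 to 3.64 kb with a median of 1.27 kb, close to the 1.36 kb of peaks in long genes. The peaks of Ntn1 and Unc5b had a median of 1.61 kb and the other 6 of 0.665 kb.

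The start regions of the 9 genes without a peak over the TSS varied in composition. The first 1 kb of transcribed sequence had 51.9% (Robo2) to 69.6% GC (Slit3) in these genes and 68.5% in Unc5b. Long genes had a median of 64.7% where a peak covered the TSS and 55.4% where none did, and Dcc (53.8%) and Robo2 lay below both. The observed over expected ratio of CpG dinucleotides around the TSS was 0.98 for Unc5b, the highest of the 10, and 0.56 (Robo2) to 0.84 (Unc5d) for the others. Skew in the first 1 kb was 0.13 in Unc5b, 0.07 in Slit2 and 0 in Dcc. In the other 7 genes it was below 0, down to -0.13 in Ntn1, though barely so in Robo1 (-0.0065), Unc5c (-0.0089) and Slit1 (-0.019). Skew in this stretch was positive in 77.1% of long genes with a peak over the TSS and in 72.3% of those without. Long genes with a peak over the TSS had a median CpG ratio of 0.83 and a median skew of 0.07, and those without had 0.66 and 0.05.

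Other genes of axon guidance gave a wider frame, from a list of 68 that were all found in the annotation, Draxin under its older symbol 2610109H07Rik. Of these, 42 (61.8%) held a peak, 12 had one over the TSS and 5 over the TES. Of all protein-coding genes, 39.6% held a peak, 14.9% had one over the TSS and 10.9% over the TES. By length, a peak was present in 13 of 25 under 50 kb and 4 of 7 at 50 to 100 kb. The counts were 10 of 17 at 100 to 200 kb and 9 of 12 at 200 to 400 kb. At 400 kb and above, the count was 6 of 7. The shares of all protein-coding genes in these classes were 34.1%, 55.6%, 61.6%, 64.6% and 72.0%. The most peaks lay in genes that act inside the cell downstream of guidance receptors. Trio, which encodes a guanine nucleotide exchange factor, held 26 peaks in 295 kb. Dock1, an activator of Rac, held 20, the Src family kinase gene Fyn held 17, and Srgap2, a Slit-Robo GTPase activating protein gene, held 12. Nck2, Ptk2 and Srgap3 followed with 6 each. By share of bases in peaks, the leading genes were Rgma (67.4%), Ephb3 (56.5%), Efnb1 (50.4%), Rac1 (49.6%) and Fyn (26.9%). The longest without a peak were Sema3a (477 kb), Epha5 (360 kb) and Efna5 (277 kb), which encode a secreted semaphorin, an ephrin receptor and an ephrin. Of the closest relatives of the 10 genes, chosen after their values were seen, Ntn4 held 5 peaks with 1 over its TSS, and Neo1, Unc5a, Robo3, Robo4, Ntn3 and Ntn5 held 0. Robo3, Robo4, Ntn3 and Ntn5 are under 50 kb, where 34.1% of protein-coding genes held a peak. Ntng1 and Ntng2, also on the list, held 1 and 2 peaks.

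The list was also set beside marker genes of cell types, for which a peak is no measure of expression. A peak was present in 9 of 12 markers of neural stem and progenitor cells, Nes, Sox2 and Vim among them, and absent from Fabp7, Pax6 and Hes5. It was present in 1 of 5 neuron, 1 of 4 oligodendrocyte, 1 of 4 microglia, 1 of 3 endothelium and 0 of 4 pluripotency markers. Of all protein-coding genes 39.6% held a peak, and of those under 50 kb 34.1% did. Lists of 3 to 5 genes are too short to be told apart from these shares. The 5 digestion enzymes had a site no more than 100 bp from 7 of the 36 peak edges in the 10 genes (19.4%), beside 28.3% of all edges.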

How the data were processed

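The authors adapter trimmed reads (Trim Galore 0.6.6 in the submitters' processing notes), placed them on NCBI37/mm9, discarded duplicates and called R-loop peaks with a Hidden Markov Model. How the 3 biological replicates were combined is not given in the sources used here. The deposited list holds positions alone (chromosome, start and end, counted from 0 and written here from 1). The aphidicolin treatment is taken from the paper's methods. The input sample was not analysed here. Peaks were overlapped with GENCODE M1 genes (minimum 1 bp). The TSS and TES are the ends of the gene limits, and exon numbers follow the longest protein-coding transcript. Composition came from mm9. Peaks were described one by one, or for genes with more than 5 by the widest, the narrowest and the one nearest the TSS; of other guidance genes, the 5 with most peaks, the 5 most covered and the 3 longest with none were named. Members and lists were chosen with earlier results of these data known. The GC limit, peak-free intervals, CpG ratio, the repeat measure and settings that leave out genes or use other transcripts were chosen after seeing the data. A symbol with several protein-coding entries was read at the longest. Steps were tested on simulated data. Python 3.11.15, numpy 2.4.6, scipy 1.17.1 and matplotlib 3.10.9 were used.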

Additional observations from a re-analysis of the deposited data

How the results depend on the processing

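Of 49 values over the 10 genes under alternative settings, 38 stayed within 1.5 times for counts, 1 SD over peaks for composition, or the Wilson interval over bases for coverage, and 11 moved. The Wilson interval treats bases as independent, though they lie in contiguous peaks, so it is too narrow. The SD is the spread of single peaks, not the error of their mean. With peaks of at least 1 kb alone, 4 genes in place of 7 held a peak (Unc5b, Unc5d, Slit1 and Ntn1), with 11 peaks in place of 18, 0.511% of bases covered in place of 0.616%, 1 peak in the first 10% of the gene and 0 TSS covered. Dcc, Robo2 and Slit3 fell to 0 and Unc5d to 1. With gene limits extended by 2 kb, 0.627% was covered. Without Ntn1 there were 10 peaks, and without Ntn1 and Unc5b 6 peaks and 0.120% covered. Leaving out both also took mean GC content from 52.2% to 45.8%, under the 49.0% of peaks in long genes, and mean skew from 0.07 to 0.16, each within the SD over peaks. With any protein-coding transcript, 2 genes had a start and 2 an end in a peak, Ntn1 being added through its internal starts and its short transcript. No paired analysis was possible because there is 1 peak list without separate replicates. A gene without a peak is below an unknown threshold at an unknown depth, not shown to lack R-loops.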
